A study of Mus musculus with 76 samples.

Results

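The genes described here are 10 markers of hepatocyte zonation that also handle nitrogen or set the pericentral program. Glul, Oat, Axin2 and Tbx3 mark the pericentral side of the liver lobule, and Hal, Sds, Gls2, Cps1, Arg1 and Ass1 mark the periportal side. They were chosen by name, and all 10 were found among the 16775 entries of the liver table, while 8 of the 10 were found among the 18964 entries of the adipose table, where no entry named Sds or Cps1 was found. Liver and visceral white adipose tissue (WAT) were taken from female C57BL/6 mice with free access to food. Fnip2C/C mice carry an engineered T-to-C change in the 3′UTR of Fnip2, which codes for a partner of folliculin in mTORC1 signalling, together with a second base change that disrupts the PAM of the guide, and Fnip2T/T mice carry the T allele. The edit was made with CRISPR/Cas9 in C57BL/6 zygotes, the change is in every cell of the mouse, and the labels give no age for the sequenced mice. Livers came from 5 Fnip2C/C mice (numbers 590, 591, 592, 638 and 639) and 5 Fnip2T/T mice (607, 608, 657, 658 and 659). WAT came from 4 Fnip2C/C mice (590, 593, 599 and 638) and 5 Fnip2T/T mice (607, 608, 609, 657 and 658), so that 6 mice gave both tissues.

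Blood enters the lobule at the portal tracts and leaves through the central vein, and hepatocytes along this path differ in what they do. Periportal hepatocytes take up ammonia and amino acids and run the urea cycle, whereas a thin layer of pericentral hepatocytes traps the ammonia that escapes as glutamine. Wnt ligands from the endothelium of the central vein keep the pericentral program on through beta-catenin and the TCF/LEF factors, and glucagon, amino acids and feeding set many periportal enzymes.

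RefSeq promoters (build GRCm38.p6, 250 bases before to 50 bases after the start) were at hand for 5 of the 10 genes, namely Glul, Oat, Axin2, Hal and Ass1. They were searched on both strands for CTTTGAT and CTTTGTT, forms of the TCF/LEF motif that do not overlap each other, because pericentral genes are known for their Wnt response. The only match in these promoters was a CTTTGAT in the promoter of the periportal gene Hal. The window around it, chr10:93488559-93488585 on the plus strand, is shown here with the motif in capitals.
Hal: gaactgctttCTTTGATggagcaatgg
Of the 32851 promoters of this length, 3.73% held CTTTGAT and 5.85% held CTTTGTT on either strand. No match says only that these letters are not in the window searched, and the match in Hal is a description of its sequence.

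Sequencing started near the 3′ ends of polyadenylated RNA. The deposited values are normalized counts, that is, reads of a gene divided by 1 size factor per library. The reads assigned to genes ranged from 5583041 to 7523200 per liver and from 4180209 to 6277644 per WAT library. The tissue labels were checked against marker genes. In liver, the summed normalized counts of 7 hepatocyte genes (among them Alb and Ttr) lay between 806330 and 1004250, and the adipocyte genes (2 of 6 were listed) reached at most 98.6 in sum. The adipocyte sum in WAT lay between 16029 and 77602, and the hepatocyte sum did not exceed 273.5. Fold changes below are Fnip2C/C minus Fnip2T/T, on the scale of log2(normalized count + 1), from limma fits over all genes whose normalized counts averaged 10 or more in a tissue, and adjusted p-values are Benjamini-Hochberg values over all those genes. Fnip2 itself had normalized counts in liver of 133.0 to 197.5 in Fnip2C/C mice and 49.2 to 134.0 in Fnip2T/T mice. Its log2 fold change was 0.63 (standard error 0.23, limma adjusted p = 1.00), and 0.39 without mouse 659. Before adjustment, the limma p was 0.015. Exchanging the genotype labels among the livers in every possible way (exact permutation) gave p = 0.016. The fold change in liver stayed positive in all 21 alternative fits, each with an unadjusted p under 0.05 and none past the adjusted threshold. In WAT, Fnip2 had normalized counts of 14.1 to 30.9 in Fnip2C/C and 14.5 to 42.6 in Fnip2T/T mice (exact permutation p = 0.452). Its log2 fold change in WAT was negative in all 18 alternative fits (-0.47 to -0.06), with none past the adjusted threshold. By RT-qPCR, the paper reported no association between the allele and Fnip2 mRNA levels in mouse liver or gonadal WAT. Since the tables count reads per gene, they do not read the edited base.

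The comparison of the livers asks whether the edited Fnip2 allele goes with a change in zonated nitrogen handling. All 10 genes passed the filter in liver, and 0 of the 10 differed between the genotypes at an adjusted p under 0.05. The same was true of all genes, since 0 of 11710 genes passed (0%), both with limma and with edgeR or DESeq2 on the recovered reads. At an unadjusted limma p under 0.05, 1 of the 10 (Tbx3) stood beside 1.97% of all genes tested (231 genes with limma, 269 with edgeR and 225 with DESeq2). In none of the 10 genes were the libraries of the genotypes apart, as they were for 0.248% of all genes. The median fold change was -0.12 over the pericentral genes and 0.05 over the periportal genes, and 0.01 over all genes tested.

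Among the pericentral genes, Glul codes for glutamine synthetase, which joins ammonia to glutamate. Its normalized counts were 5974, 7077, 5874, 5334 and 5453 in the Fnip2C/C livers and 5350, 6840, 5951, 6350 and 2532 in the Fnip2T/T livers. Mouse 659 was far below the other 9 livers, which overlapped. The group levels were 5942 ± 690 (SD, n = 5) in Fnip2C/C and 5405 ± 1696 (SD, n = 5) in Fnip2T/T. The log2 fold change was 0.21 (standard error 0.22) and not past the threshold (limma adjusted p = 1.00), and it became -0.04 without mouse 659.

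Oat, ornithine aminotransferase, links ornithine to glutamate and proline. It had 2234, 3374, 1435, 2302 and 1485 normalized counts in Fnip2C/C livers and 2429, 2322, 1336, 2731 and 1086 in Fnip2T/T livers. Both genotypes held low and high livers, with mouse 591 highest and mouse 659 lowest. Its log2 fold change was 0.15 (standard error 0.31), and -0.05 without mouse 659 or -0.03 without mouse 591.

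Axin2, a scaffold of the beta-catenin destruction complex and a direct Wnt target, was counted in only 3 to 27 reads per liver. Its normalized counts were 10.8, 9.96, 13.7, 6.2 and 11.6 in Fnip2C/C mice and 14.2, 25.8, 3.7, 29.6 and 10.2 in Fnip2T/T mice. The Fnip2T/T livers held both the lowest and the highest values, and the log2 fold change was -0.38 (95% confidence interval -1.29 to 0.53). It was -0.68 with both edgeR and DESeq2, and it ranged from -0.11 without mouse 658 to -0.79 without mouse 657.

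Tbx3 codes for a T-box repressor that Wnt signalling maintains in pericentral hepatocytes. It had normalized counts of 154.2, 190.1, 141.3, 105.5 and 75.0 in Fnip2C/C livers and 178.3, 277.2, 267.0, 194.4 and 121.6 in Fnip2T/T livers. Levels were 133.2 ± 44.4 (SD, n = 5) against 207.7 ± 64.8 (SD, n = 5), and the groups overlapped between 121.6 and 190.1. The log2 fold change was -0.65 (95% confidence interval -1.22 to -0.07). Its unadjusted limma p of 0.030 did not pass after adjustment (limma adjusted p = 1.00), and an exact two-sided permutation test of this gene alone gave p = 0.0794, where the smallest p this design allows is 0.0079. The sign was negative under all 21 alternatives, with values from -0.82 without mouse 659 to -0.46 without mouse 639, and within the mice numbered under 610 and over 630 it was -0.47 and -1.05.

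**Figure D1:**
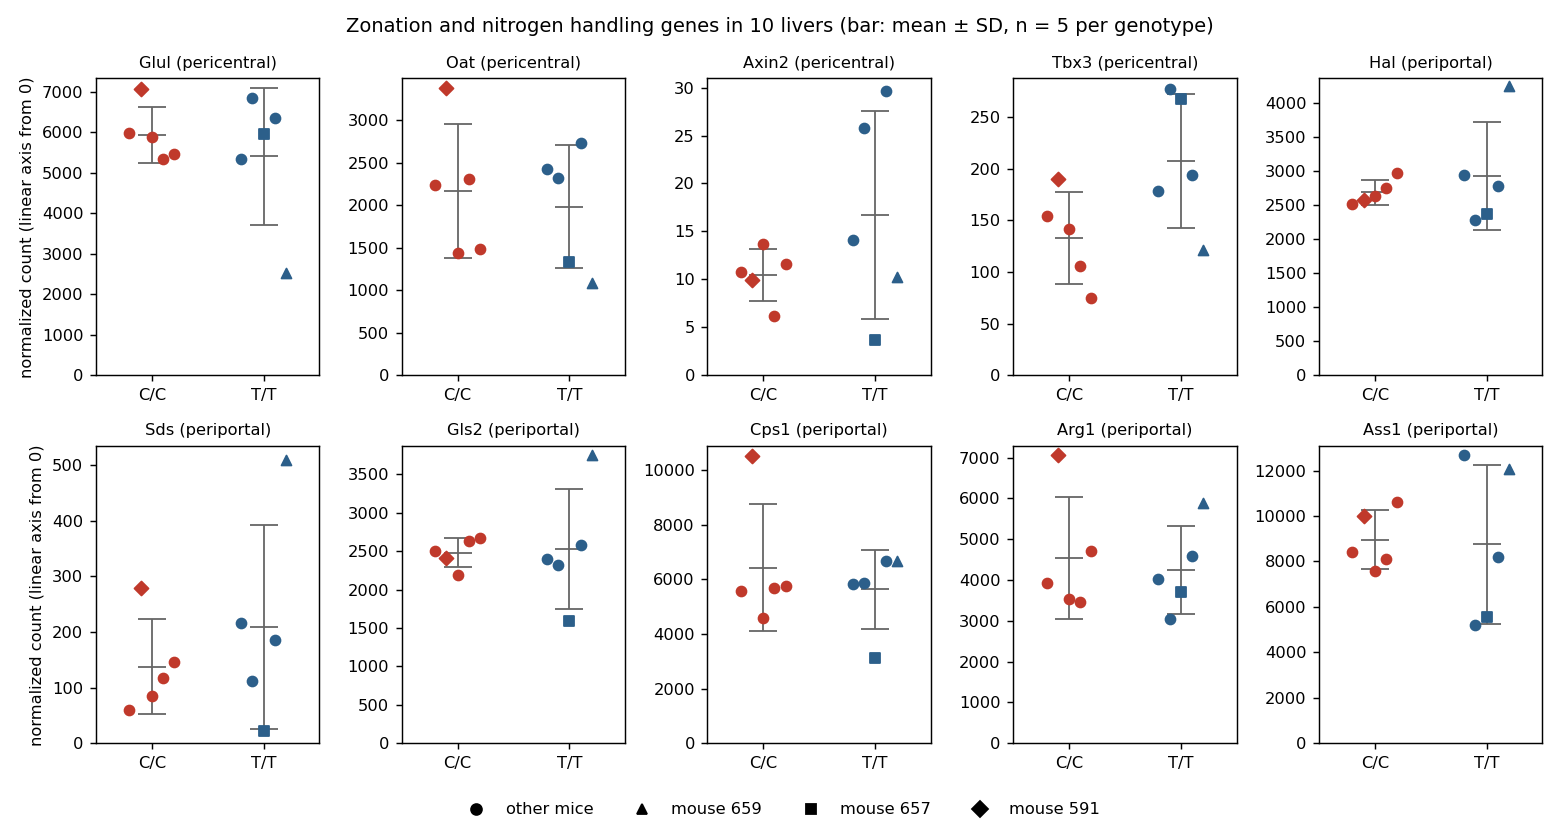
Normalized counts (linear axes from 0) of the 10 genes in each liver, by genotype, with bars for the mean and SD (n = 5). Mouse 659 (triangle) is lowest for Glul at 2532 and highest for Sds at 509.5, mouse 657 (square) is lowest for Sds at 21.9, and mouse 591 (diamond) is highest for Cps1 at 10506.

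Hal, histidine ammonia-lyase, opens histidine breakdown. In the Fnip2C/C livers it had 2513, 2568, 2628, 2749 and 2968 normalized counts, and in the Fnip2T/T livers 2933, 2283, 2373, 2776 and 4251. The genotypes overlapped, with mice 608 and 657 below every Fnip2C/C liver and mouse 659 above them. It was the steadiest of the 10 genes over the 10 livers, with a highest value 1.86 times the lowest, and its log2 fold change of -0.09 (standard error 0.15) became 0.06 without mouse 659.

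Sds, serine dehydratase, turns serine into pyruvate and ammonia, and it varied most of the 10 genes. Its normalized counts were 59.5, 278.7, 85.7, 116.9 and 145.7 in Fnip2C/C livers and 217.0, 112.8, 21.9, 185.6 and 509.5 in Fnip2T/T livers. The highest liver held 23.2 times the level of the lowest, both were Fnip2T/T, and the SD was 87.8% of the mean in that genotype and 62.2% in Fnip2C/C. The log2 fold change of -0.22 therefore had a wide interval (95% confidence interval -2.09 to 1.65), and it became 0.25 without mouse 659 and -0.87 without mouse 657. It was -0.63 with edgeR, -0.61 with DESeq2 and -0.56 with library weights, none past the threshold.

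Gls2, the liver glutaminase that releases ammonia from glutamine, had 2499, 2407, 2195, 2631 and 2669 normalized counts in Fnip2C/C livers. The Fnip2T/T livers had 2400, 2325, 1596, 2577 and 3755, so that the lowest and the highest liver were again mice 657 and 659. Its log2 fold change was 0.02 (95% confidence interval -0.34 to 0.38).

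Cps1, carbamoyl phosphate synthetase, is the entry step of the urea cycle. Its normalized counts were 5579, 10506, 4580, 5699 and 5773 in Fnip2C/C livers and 5823, 5882, 3136, 6667 and 6666 in Fnip2T/T livers. Of the 10 livers, 8 lay between 4580 and 6667, with mouse 591 above and mouse 657 below. The log2 fold change was 0.18 (standard error 0.24), and it was -0.02 without either mouse 591 or mouse 657.

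Ass1, argininosuccinate synthetase, ranged from 7595 through a median of 8410 to 10634 normalized counts in Fnip2C/C livers and from 5221 through 8217 to 12692 in Fnip2T/T livers. For Arg1, the arginase that releases urea, these values were 3466, 3935 and 7072 against 3039, 4029 and 5882. The SD of Ass1 was 40.1% of the mean in Fnip2T/T and 14.5% in Fnip2C/C, and the difference in spread was not tested. Log2 fold changes were 0.12 (standard error 0.24) for Ass1 and 0.08 (standard error 0.20) for Arg1. Both changed sign without mouse 608, to -0.04 for Ass1 and -0.03 for Arg1, and Arg1 was -0.09 without mouse 591.

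**Figure D2:**
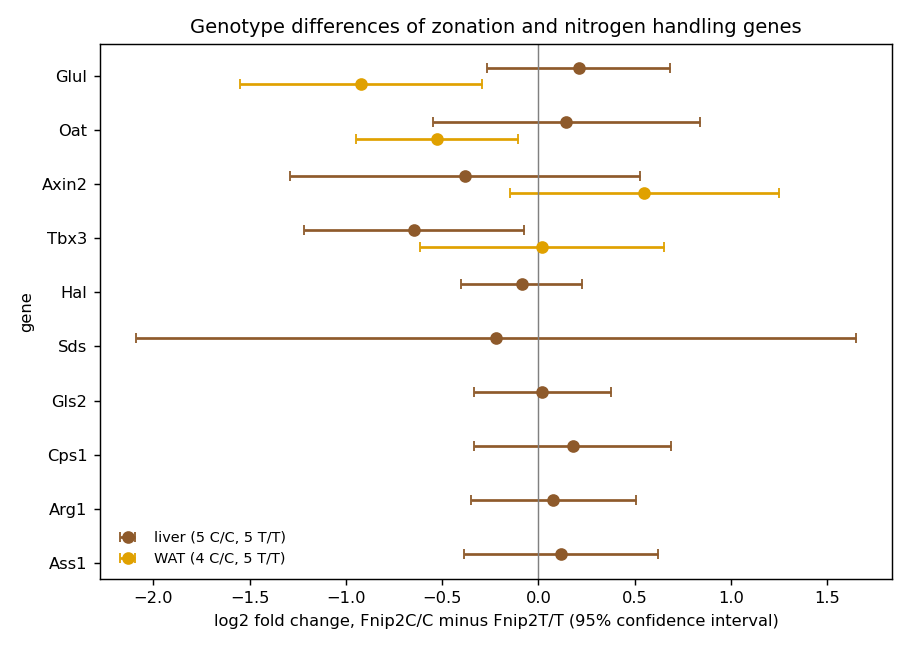
Log2 fold changes (Fnip2C/C minus Fnip2T/T, with 95% confidence intervals from limma) of the 10 genes in liver and of the 4 genes tested in WAT. In liver, the intervals of 9 of the 10 genes include 0, with that of Sds reaching from -2.09 to 1.65, and in WAT the interval of Glul lies between -1.55 and -0.30.

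The liver of mouse 659 (Fnip2T/T) stood apart in opposite directions for the pericentral and the periportal genes. Set against the median of the other 9 livers, its level was 0.43 times for Glul, 0.47 times for Oat, 0.68 times for Tbx3 and 0.88 times for Axin2, and it was 4.36 times for Sds, 1.62 times for Hal, 1.56 times for Gls2, 1.49 times for Arg1, 1.47 times for Ass1 and 1.15 times for Cps1. Of 16 other pericentral genes, 14 had their lowest level in this liver, whereas 13.0% of all genes tested did. These included the ammonia transporter gene Rhbg (39.9, against a median of 132.0 in the other livers) and the glutamate transporter gene Slc1a2 (328.5 against 725.5). The Wnt pathway gene Lgr5 (45.5 against 75.8) and the cytochromes Cyp2e1 (3895 against 10723) and Cyp1a2 (2651 against 6328) were also among them. Slc22a3 was second lowest there at 6.5, and Cyp7a1, the rate-limiting enzyme of bile acid synthesis, went the other way at 1422 against 548.4.

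Of 16 other periportal genes, 6 were highest in the liver of mouse 659, beside 9.01% of all genes. Etnppl (1140 against 508.0), Aldh1b1 (3567 against 1707) and the glyoxylate enzyme gene Agxt (2063 against 1435) were among them. In contrast, Cyp2f2 (4032 against 6479), Pigr and Sult5a1 were lowest there, so that the periportal genes did not move as 1 group. Among markers of other cells, 4 of 5 Kupffer cell genes were also lowest in this liver, while none of the 5 endothelial or 5 stellate cell genes tested was. Some markers stood higher there, with the hemoglobin gene Hba-a1 at 2.02 times the median of the other livers and the other 4 tested blood genes at 1.38 to 1.57 times. The endothelial genes were split, with Lyve1 at 2.57 times. In contrast, Stab2 was at 0.80, Clec4g at 0.73, Pecam1 at 0.89 and Kdr at 0.91 times. Lyve1 and Hba-a1 were the highest of the 10 livers. Of 13 tested feeding and glucagon responsive genes, 4 were lowest in this liver (13.0% of all genes), among them Angptl4 at 0.07 times. Another 2 were highest there (9.01% of all genes), Tat at 2.44 and Srebf1 at 1.66 times. The summed Kupffer cell counts lay between 1791 and 2674 in Fnip2T/T livers and between 2215 and 2421 in Fnip2C/C livers, and the part of these cells, of blood or of feeding in the levels above was not tested. In bulk tissue, fewer cells of a kind and less RNA per cell cannot be told apart. The library of mouse 659 held 6897043 reads, within the range of the others.

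Mouse 657 (Fnip2T/T) had the shallowest liver library and the lowest Sds, Gls2, Cps1 and Axin2. The mean log2 level of the 4 pericentral genes minus that of the 6 periportal genes was -2.36, -2.80, -2.45, -2.86 and -3.15 in the Fnip2C/C livers and -2.68, -1.74, -2.08, -2.21 and -4.00 in the Fnip2T/T livers. The lowest and the highest liver on this scale were both Fnip2T/T, mice 659 and 608. Group levels were -2.72 ± 0.32 (SD, n = 5) and -2.54 ± 0.88 (SD, n = 5), a difference of -0.18 that became -0.55 without mouse 659 and 0.02 without mouse 608.

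**Figure D3:**
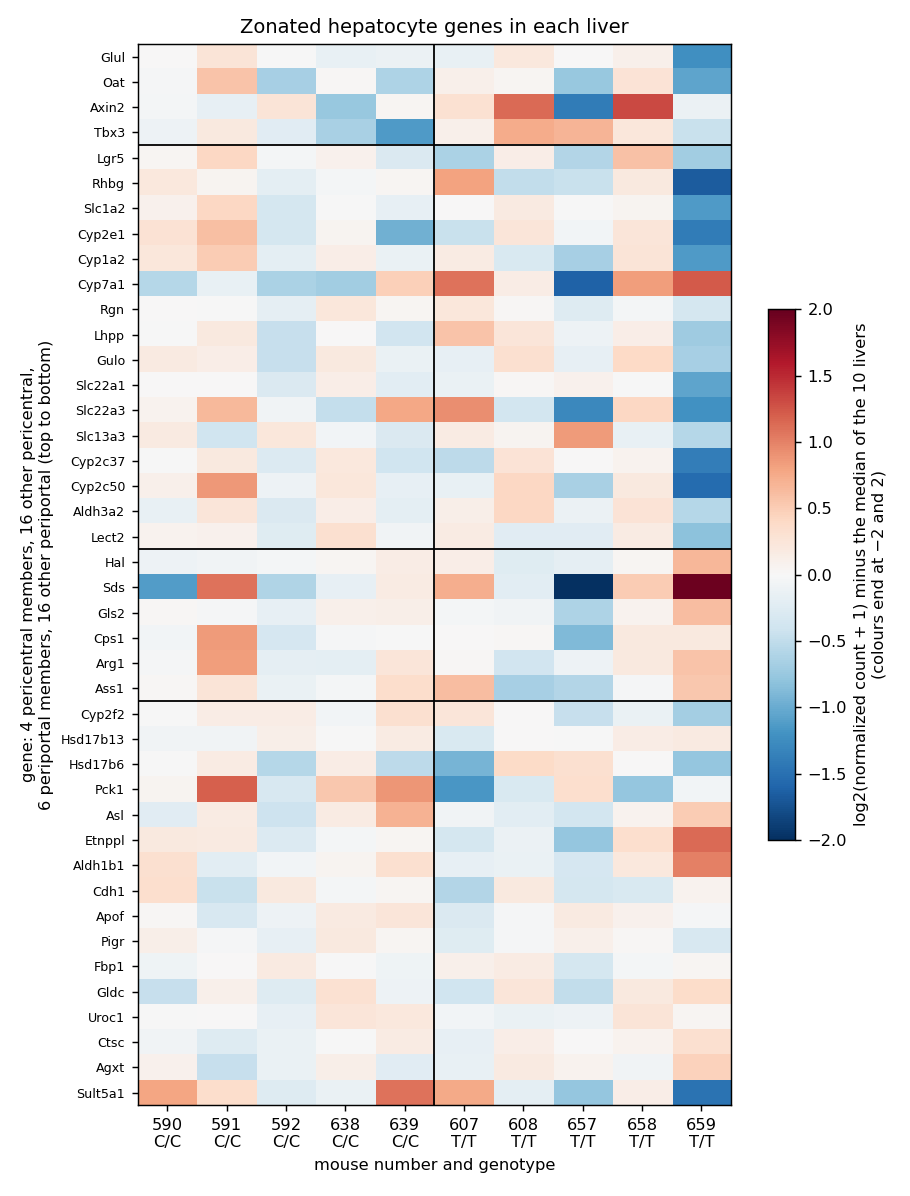
Each cell is the log2(normalized count + 1) of a gene in a liver minus the median of the 10 livers, with genes in rows by zone and livers in columns by genotype and mouse number. The column of mouse 659 is blue for Glul, Oat and 15 of the 16 other pericentral genes, with Cyp7a1 the exception, and red for the 6 periportal genes of the upper block.

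Across the 10 livers, the levels of genes of the same zone were positively correlated, although no pair passed adjustment. Pearson correlations of log2 levels were positive in 21 of the 21 pairs within a zone (median r of 0.35 over the 6 pericentral pairs and 0.66 over the 15 periportal pairs), and the median over the 24 pairs between zones was -0.13. Of the 45 pairs, 12 had an unadjusted permutation p under 0.05 and 0 had a Benjamini-Hochberg adjusted p under 0.05, for Pearson's r as for Spearman's rho. The livers share a scaling and are 1 library per mouse. No share of positive pairs over all genes is given here, so that 21 of 21 is a description only.

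The strongest relation was between Glul and Hal, with r = -0.93 (permutation p = 0.0037, adjusted p = 0.099) and rho = -0.70 (permutation p = 0.031, adjusted p = 0.157). Without mice 591 and 659, the livers farthest from the median of Glul, r was -0.73 (exact permutation p = 0.0395 over 8 livers, adjusted p = 0.249), and without mouse 659 alone it was -0.65. Sds and Cps1 had r = 0.81 (permutation p = 0.0111, adjusted p = 0.099) and rho = 0.84 (permutation p = 0.0037, adjusted p = 0.152), and r was 0.73 without mice 657 and 659 (exact permutation p = 0.0337 over 8 livers, adjusted p = 0.249). Sds and Gls2 had r = 0.84 (permutation p = 0.0083, adjusted p = 0.099) and rho = 0.59 (permutation p = 0.079, adjusted p = 0.240), but r was 0.14 without mice 657 and 659, so that this relation rests on them.

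Values centred on the mean of their genotype gave 5 pairs past adjustment. These were Glul with Tbx3 (r = 0.74), Glul with Hal (r = -0.93), Tbx3 with Hal (r = -0.83), Hal with Ass1 (r = 0.79) and Sds with Cps1 (r = 0.85). The adjusted permutation p was 0.022 for Glul with Hal and for Tbx3 with Hal, and 0.044 for the other pairs. The permutations exchanged centred values across both genotypes and took no account of the means removed, so these p-values can be too low. Leaving out mouse 591 also gave 5 pairs, of which Glul with Hal, Hal with Ass1 and Sds with Cps1 were shared, beside Hal with Arg1 (r = 0.88) and Gls2 with Cps1 (r = 0.86). Without mouse 659 there was 1, Oat with Cps1 (r = 0.85), and the median between zones turned to 0.09. Pairs of a member with Fnip2 or with Pck1 (a gluconeogenic, glucagon responsive enzyme) were adjusted in a family of 30 pairs, and 0 passed. Among them the pair with the lowest p was Fnip2 with Glul (r = 0.72, permutation p = 0.0913, adjusted p = 0.546), where rho had the other sign (-0.20, permutation p = 0.585, adjusted p = 0.974). Its r was -0.49 without mouse 659 and -0.37 without mice 639 and 659, so that the positive r rests on mouse 659.

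**Figure D4:**
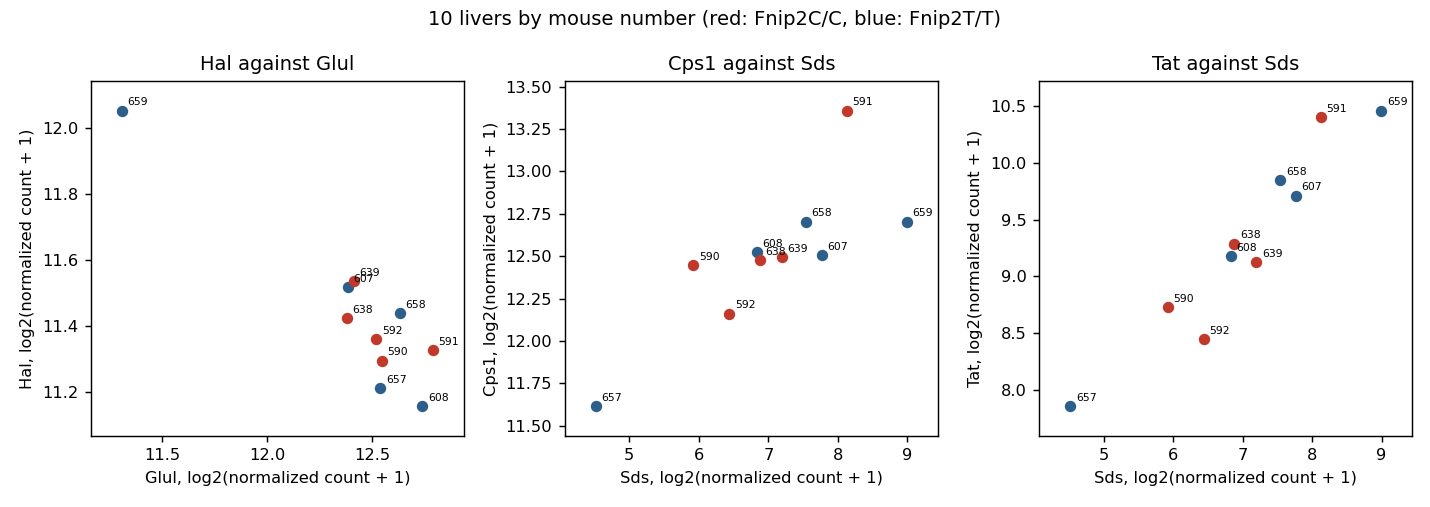
Log2(normalized count + 1) of Hal against Glul, Cps1 against Sds and Tat against Sds in the 10 livers, labelled by mouse number and coloured by genotype. Mouse 659 sits alone at the lowest Glul and highest Hal (r = -0.93 with it and -0.65 without it), whereas Tat follows Sds across all 10 livers (r = 0.95).

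The genes most like Glul over the 10 livers, by Pearson r and with no test, were Ube4b (r = 0.95), Mup17 (0.94), Slc1a2 (0.93), 2510002D24Rik (0.93) and Gm43323 (0.92). All of these were lowest in mouse 659, and without that liver their r with Glul lay between 0.47 and 0.68. Nearest to Sds were Sdhd (r = 0.98), the tyrosine aminotransferase gene Tat (0.95), Tap2 (0.94), Mrps31 (0.94) and Srebf1 (0.94), a lipogenic regulator. Their r with Sds stayed between 0.92 and 0.97 without mouse 659, and each of these genes was lowest in mouse 657 and highest in mouse 659. Tat, for example, ran from 230.4 to 1410 normalized counts and Sdhd from 9.8 to 214.4.

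In the lists of related genes, chosen with earlier results of these data known, 0 genes passed in liver. The median fold changes were 0.19 over 16 other pericentral genes, 0.03 over 16 other periportal genes, 0.07 over 23 tested Wnt/beta-catenin genes, 0.07 over 5 tested genes of the urea cycle and its carriers, 0.12 over 15 genes of ammonia, glutamate and glutamine, 0.05 over 31 amino acid breakdown genes and 0.19 over 13 feeding and glucagon responsive genes, beside 0.01 over all genes. Of the 16 other pericentral genes, 14 were lowest in the liver of mouse 659 (Fnip2T/T), and no list median without it is given here. By unadjusted p, the lowest genes were Sdsl, a relative of Sds (45.1 ± 14.1 against 68.9 ± 17.5 normalized counts, log2 fold change -0.63), G6pc, the last enzyme of glucose release (2692 ± 742 against 1696 ± 504, log2 fold change 0.68), and Pck1 (3491 ± 1409 against 1906 ± 750, log2 fold change 0.87), each as mean ± SD with n = 5. None passed adjustment (limma adjusted p = 1.00 for each), and the genotypes overlapped for all of them.

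The named genes of the urea cycle list, Slc25a15, Nags and Otc, lay at 0.09, -0.07 and 0.07 on the log2 scale. In the other lists the values were 0.44 for Cyp1a2, 0.53 for Cyp2c50 and 0.22 for Lect2 (pericentral), 0.32 for Cyp2f2 and -0.22 for Agxt (periportal), 0.36 for Wnt2, -0.69 for Rnf43 and 0.18 for Tcf7l2 (Wnt), 0.24 for Slc38a2, 0.36 for Ppat and 0.25 for Gpt2 (ammonia and glutamate), 0.24 for Prodh (amino acid breakdown) and 1.54 for Igfbp1 (feeding). Each of these genes had overlapping genotypes and a limma adjusted p of 1.00. Among them, Cyp1a2, Cyp2c50, Lect2, Cyp2f2 and Wnt2 were lowest in the liver of mouse 659 (Fnip2T/T).

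In WAT the genotype differences were of another scale, with 32.1% of the 12798 genes tested past the adjusted threshold and 17% lower in Fnip2C/C. Of the 10 zonation genes, 4 passed the filter on low values there (the pericentral genes Glul, Oat, Axin2 and Tbx3), 1 of these was called, and it was lower. Glul had normalized counts of 2796, 1116, 2464 and 1941 in the Fnip2C/C mice and 4270, 2773, 2915, 3762 and 5524 in the Fnip2T/T mice. All Fnip2C/C libraries but that of mouse 590 lay below every Fnip2T/T library, and mouse 593 was lowest. In 26.1% of all genes tested the genotypes did not overlap, and in 0 of these 4 genes.

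Glul fell from 3849 ± 1120 (SD, n = 5) to 2079 ± 732 (SD, n = 4). On the log2 scale the change was -0.92, with a standard error of 0.29 and a limma adjusted p of 0.029. An exact two-sided permutation test of Glul alone gave p = 0.0238. The direction was the same under all 19 alternatives and the call held under 14 of them. It was lost without mouse 593 (-0.65, limma adjusted p = 0.072) and also without mouse 638, 607, 657 or 658 (limma adjusted p between 0.055 and 0.068). Within the mice numbered under 610 (3 against 3) the difference was -0.72, and within those over 630 (1 against 2) it was -1.23.

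Markers of other cells moved with these libraries. The summed counts of 6 adipocyte genes lay between 16029 and 48352 in Fnip2C/C and between 52966 and 77602 in Fnip2T/T, with 5 of the 6 called lower, and Adipoq, the adiponectin gene, reached 4216 to 13622 against 13869 to 21290. Summed blood genes were 1397 to 2083 against 8543 to 10868, with 4 of 5 tested called lower, and the endothelial gene Pecam1 was 248.0 to 528.3 against 633.5 to 975.8. Not all markers fell. Ptprc, the remaining blood gene tested, was at 156.4 to 253.0 against 87.9 to 165.2 (log2 fold change 0.56, limma adjusted p = 0.064). All 4 mesothelial genes had positive fold changes (median 0.86), and 0 of them were called. The library of mouse 593 held ovary transcripts (Cyp11a1 at 15068 normalized counts, against at most 13.6 in any Fnip2T/T library, and Inha at 3089). The part of these cells in the level of Glul was not tested.

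Oat had 121.1, 117.9, 171.3 and 130.01 normalized counts in Fnip2C/C WAT and 248.6, 179.0, 154.0, 225.1 and 173.6 in Fnip2T/T WAT. Only mouse 599 of the Fnip2C/C mice rose above the lowest Fnip2T/T library. Its log2 fold change of -0.53 (standard error 0.20) missed the threshold (limma adjusted p = 0.054, exact permutation p = 0.0397 for the gene alone) and passed it under 5 of 19 alternatives, edgeR and DESeq2 among them. Axin2, at 54.1, 28.1, 32.5 and 25.8 against 14.8, 25.3, 26.8, 33.7 and 17.4, overlapped between the genotypes. The log2 difference was 0.55, with a standard error of 0.32 (limma adjusted p = 0.208). For Tbx3 the counts were 96.4, 125.4, 120.3 and 139.4 against 213.4, 91.5, 80.4, 83.3 and 172.8, so that the Fnip2T/T libraries lay on both sides of the Fnip2C/C libraries. Its log2 fold change was 0.02 (standard error 0.29, limma adjusted p = 0.967), with a sign that 9 of 19 alternatives turned.

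**Figure D5:**
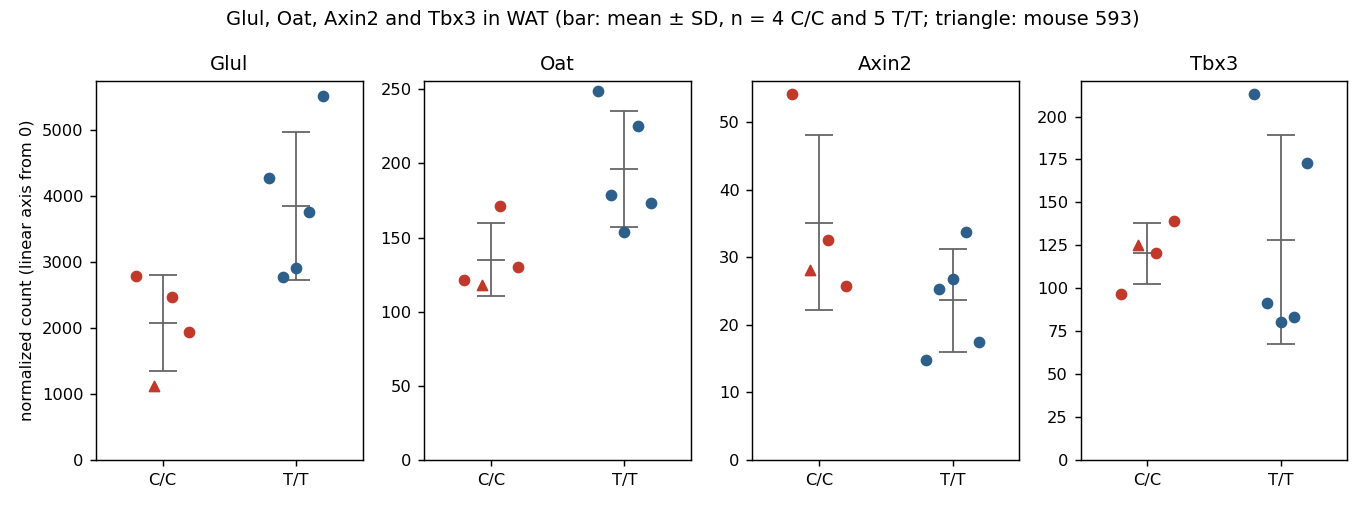
Normalized counts (linear axes from 0) of Glul, Oat, Axin2 and Tbx3 in each WAT library, by genotype, with bars for the mean and SD (n = 4 Fnip2C/C, n = 5 Fnip2T/T) and a triangle for mouse 593. Glul lies between 1116 and 2796 in Fnip2C/C and between 2773 and 5524 in Fnip2T/T, and the Fnip2T/T libraries lie on both sides of the Fnip2C/C libraries for Tbx3.

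The periportal genes had few reads in WAT. Hal had 2, 19, 4 and 1 reads in Fnip2C/C libraries and 1, 1, 0, 2 and 1 in Fnip2T/T libraries, with the 19 reads in mouse 593. Gls2 had at most 4 reads and Arg1 at most 4 reads in any WAT library, and Ass1 had between 5 and 20. None of these 4 genes was tested. In RPM, a gene's reads scaled to the library total, Glul was at 800.8 ± 250.6 (SD, n = 5) in Fnip2T/T liver and 854.8 ± 253.1 (SD, n = 5) in Fnip2T/T WAT, and Tbx3 was at 30.9 ± 9.84 and 28.8 ± 15.0. In Fnip2C/C mice Glul was at 881.0 ± 133.2 RPM in liver (SD, n = 5) and 429.6 ± 132.2 in WAT (SD, n = 4). Oat was at 292.9 ± 103.0 RPM in Fnip2T/T liver and at 43.9 ± 11.96 in Fnip2T/T WAT, whereas Axin2 was at 2.49 ± 1.62 in liver and 5.22 ± 1.74 in WAT. These levels are descriptions, since the tables were normalized separately.

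The effect of the genotype on Glul differed between the tissues. In a fit of all 19 libraries, the fold change in WAT minus that in liver was -1.13 (standard error 0.38, limma adjusted p = 0.031), where 29.2% of the 10404 genes kept in both tables passed. With a replicate block for the 6 mice that gave both tissues it was -1.16 (limma adjusted p = 0.035). This call was lost when any of 7 mice was left out, with the weakest values without mouse 593 (-0.86, limma adjusted p = 0.076) and without the liver of mouse 659 (-0.88, limma adjusted p = 0.057). The interaction did not pass for Oat (-0.67, limma adjusted p = 0.170), Axin2 (0.93, limma adjusted p = 0.232) or Tbx3 (0.66, limma adjusted p = 0.238), and for Axin2 it passed only without mouse 657 (1.48, limma adjusted p = 0.033).

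Among related genes in WAT, 2 of 6 tested pericentral genes were called, and both were lower. These were Cyp2e1 (365.1 ± 200.7 against 1372 ± 885 normalized counts, log2 fold change -1.92, limma adjusted p = 0.023) and the organic cation transporter gene Slc22a3 (-1.08, limma adjusted p = 0.023). Of 6 periportal genes, Ctsc was called lower (-1.14) and Sult5a1 higher (1.09). Of 14 ammonia, glutamate and glutamine genes, 3 were called. Of these, 2 were lower, the transaminase gene Gpt2 (255.3 ± 93.2 against 411.6 ± 83.9 normalized counts, log2 fold change -0.74, limma adjusted p = 0.034) and the asparagine synthetase gene Asns (-0.68, limma adjusted p = 0.049), and 1 was higher.

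Of 14 Wnt/beta-catenin genes, 2 were called, with Ctnnb1, the beta-catenin gene, lower (393.5 ± 101.4 against 760.5 ± 117.9 normalized counts, log2 fold change -0.97, limma adjusted p = 0.0047) and its kinase gene Gsk3b higher (1930 ± 139 against 1213 ± 208, log2 fold change 0.68, limma adjusted p = 0.013). The genotypes did not overlap for either gene. In the list of amino acid breakdown, 4 of 14 genes were called, including the cysteine dioxygenase gene Cdo1 (-1.32) and Fah (0.97). Of 8 feeding responsive genes Angptl4 was called (-1.25), and of 3 urea cycle genes 0 were called, with Slc25a15, the ornithine carrier gene, at -0.76 (limma adjusted p = 0.071). Since 32.1% of all genes were called in WAT, nothing particular to these lists was read from these counts. Named genes that did not pass were Aldh3a2 (-0.42), Pck1 (-1.27), Lrp6 (0.62), Asl (-0.16), Slc25a13 (0.21), Pdk4 (1.36) and Srebf1 (-1.39).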

How the data were processed

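RNA of liver and visceral WAT was sequenced from QuantSeq 3′ mRNA-Seq FWD libraries with an RNA input of 250 ng for liver and 500 ng for WAT and read on an Illumina NextSeq instrument. The labels list 76 run samples (4 for each library), which the deposited tables give as single columns, grouped here by labelled genotype and mouse number. Among the WAT columns, 1 matched no label and was not used. RNA label numbers in WAT were even for Fnip2C/C and odd for Fnip2T/T, so that the order of these numbers and the genotype cannot be told apart there. In liver, even and odd numbers occurred in both genotypes. The liver columns ran through the even numbers (mice 590, 592, 608, 657 and 659) and then the odd ones. Such an order matched the labelled genotype in WAT but crossed it in liver. The labelled genotypes of the livers were used as given, and no value here checks them. The signal values deposited by the authors are normalized counts, where 1 size factor scales the reads of a library. Liver and WAT were normalized apart. Tools in the submitters' processing notes were FastQC 0.11.9, HISAT2, SAMtools 1.12, HTSeq and DESeq2, with the build GRCm39. Their settings, and the test applied to these data, are not given in the sources used here. Dividing by the smallest step of a library returned whole numbers, and whole reads were recovered for 100% of the values, within 1.8e-09 of a whole number. Reads assigned to genes ranged from 4180209 to 7523200 per library. They count reads and not molecules, and cover counting error only.

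Genes whose normalized counts averaged 10 or more in a tissue were tested with limma 3.58.1 (R 4.3.3; lmFit, eBayes with trend and robust options) on log2(normalized count + 1), with genotype as the only term and a Benjamini-Hochberg adjusted p under 0.05 as the threshold. The interaction was fitted over 19 libraries. That fit treated the libraries as independent, although 6 mice gave both tissues. Only the alternative with a replicate block took the mouse into account, and the within-mouse correlation estimated for the block was -0.114. Single genes were compared with exact two-sided permutation tests, and pairs of genes across livers with 100000 permutations. Alternatives were pseudocounts of 0.5 and 10, no filter, a filter at 50, library weights, scaling to equal totals, quantile normalization, edgeR 4.0.16, DESeq2 1.42.0, mouse number (under 610 or over 630) as a covariate, a replicate block and leaving out each mouse. A term for even against odd RNA label numbers in liver was chosen after seeing the data, as were the alternatives of the zonation difference and leaving out each mouse in the correlations. The fits and correlations were tested on simulated data. Replicate libraries differed by more than sampling noise (lowest chi-square per degree of freedom 7.63 among 20 liver pairs and 14.2 among 16 WAT pairs).

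The genes, the lists and the markers were chosen with earlier results of these data known. Named from the lists (other pericentral, other periportal, Wnt/beta-catenin, urea cycle, ammonia and glutamate, amino acid breakdown, feeding) are the 3 tested genes with the lowest p per list and tissue, and the 5 genes with the highest r with Glul and with Sds. Some genes that this rule or the added pairs take are not reported here. Other list genes named for the liver of mouse 659 were chosen after their values were seen.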

Additional observations from a re-analysis of the deposited data

Results flagged for a closer look

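In each genotype of the liver, 1 sample lay far from the others of its group for Cps1. Mouse 591 had 10506 normalized counts against 4580 to 5773 in the other 4 Fnip2C/C livers, a gap of 0.799 of the group's range. Mouse 657 had 3136 against 5823 to 6667 in the other 4 Fnip2T/T livers, a gap of 0.761 of the range. These were 2 of the 38 groups examined, and chance alone gives about 1 such group in 20. The liver of mouse 657 also had the fewest reads (5583041), and the part of depth in its level was not tested.

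The effect of the genotype on Glul differed between WAT and liver, by -1.13 on the log2 scale (limma adjusted p = 0.031). It was lower in WAT of 3 of the 4 Fnip2C/C mice than in every Fnip2T/T mouse.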

How the results depend on the processing

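The counts of genes called stayed within 1.5 times under every alternative run, at 0 in liver, 3010 to 4802 in WAT and 2165 to 3483 for the interaction, where the replicate block gave 2753 against 3033 without it and changed no call of a zonation gene. Leaving out each mouse gave 0 genes in liver, 3010 (without mouse 657) to 4273 in WAT and 2165 (without mouse 638) to 3352 for the interaction. For Glul, the log2 fold change ranged from -1.09 to -0.65 in WAT and from -1.34 to -0.86 for the interaction when a mouse was left out, with the call lost under 5 of 9 and 7 of 13 such fits. In those fits fewer samples were tested. The other alternatives kept both calls. The number of correlated pairs past adjustment was 5 after centring on genotype, where the permutation p-values can be too low. It was 0 to 5 when a mouse was left out (5 without mouse 591, 1 without mouse 659). As reported it was 0, and the cause of these differences was not tested. The zonation difference ranged from -0.55 to 0.02 when a mouse was left out and kept its sign under other scalings and pseudocounts.

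Signs turned only for fold changes that were not called, and the cause was not tested. When a mouse was left out, ranges that crossed 0 in liver were -0.095 to 0.20 for Arg1, -0.043 to 0.28 for Ass1, -0.021 to 0.28 for Cps1, -0.13 to 0.18 for Gls2, -0.045 to 0.31 for Glul, -0.17 to 0.057 for Hal, -0.049 to 0.28 for Oat and -0.87 to 0.25 for Sds, and in WAT -0.12 to 0.23 for Tbx3. Library weights turned Arg1 to -0.040 and Gls2 to -0.013 in liver and Tbx3 to -0.13 in WAT. Gls2 was also -0.017 with quantile normalization, -0.039 with edgeR and -0.032 with DESeq2. Tbx3 in WAT was also -0.057 when scaled to the same total, -0.13 with edgeR and -0.095 with DESeq2. With edgeR, Sds and Axin2 in liver were -0.63 and -0.68. Read counts were low for Axin2 in liver (3 to 27) and for the 4 periportal genes listed in WAT (0 to 20).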
